A study of Homo sapiens with 34 samples.

Results

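The beta-like globin genes were followed through the cytokine-free haematopoietic differentiation of H1 cells, an established line of human embryonic stem cells. They were chosen by name as the embryonic gene HBE1, the fetal genes HBG1 and HBG2 and the adult genes HBD and HBB, and all 5 were found among the 20255 genes of the expression table. RNA was sequenced from 34 samples. These were 1 sample of undifferentiated H1 cells and 3 samples of each of the other 11 populations: whole cultures of days 0, 2 and 4, and the CD43+ and the CD43- fraction taken by cell sorting on days 6, 9, 12 and 16. Day 0 cells were embryoid bodies, unattached by the study's account, for which the labels list BMP4 and hVEGF, and all later populations are listed with hVEGF. After attachment the cultures received BMP4 and VEGF first and then VEGF alone, which began on day 3 by the labels' protocol and on day 2 by the study's methods, with no blood cytokine added. CD43 is a surface glycoprotein of blood cells. On day 16 the sort also used CD45, so that the day 16 CD43+ population is CD43+/CD45+ cells and the day 16 CD43- population is CD43-CD45- cells. In every comparison of day 16 with an earlier day, the day and the sort therefore cannot be told apart. The sorted cells come from 1 line in culture and are mixtures of cell types in unknown shares.

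Haemoglobin of red blood cells is built from a pair of alpha-like and a pair of beta-like chains. The beta-like genes lie side by side on 1 chromosome in the order in which they are used, with epsilon globin (HBE1) in the first red cells of the yolk sac, gamma globin (HBG1 and HBG2) in the fetus, and beta globin (HBB) with a small part of delta globin (HBD) after birth. A distant enhancer, the locus control region, drives 1 gene of the cluster after another, and the passage from embryonic to fetal to adult genes is called globin switching.

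The values are GC-normalized tag counts. All 34 samples hold the same set of values in another order, with a median of 197 and a highest value of 90700 that exactly 10 genes reach in each sample. A value therefore reflects a gene's rank within its sample, taken in bins of GC content, the scale is narrowed for the most abundant genes, and sequencing depth is unknown. The blood marker SPN, which encodes CD43, averaged 2668 to 9203 in the CD43+ populations and 23.0 to 178 in the CD43- populations. In the tests, a gene was called at a Benjamini-Hochberg adjusted p below 0.05 over all 19788 genes tested and a fold change above 4, and fold changes are on the log2(value + 1) scale. A single model held all replicated populations. A gene's SE is therefore the same for every pair of populations, and it is drawn from the spread within all of them. It is not the spread of the samples compared alone. All 5 genes passed the filter on low values (10 or more in 3 or more samples), HBE1 and HBG2 with 24 samples at 10 or more, HBD with 14, HBG1 with 12 and HBB with 7. For HBG1 all of these were CD43+ samples. For HBD they were all CD43+ except day 16 CD43- replicates 2 and 3, and for HBB all except day 2 replicate 2. HBG1, HBD and HBB thus passed only through CD43+ samples, and counts of genes called higher in CD43+ cells are not independent of the filter. In bulk RNA, fewer cells that express a gene and less RNA of it per cell cannot be told apart.

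All 5 genes lie on the minus strand of chromosome 11 of GRCh38, so that transcription runs from HBE1 towards HBB. The RefSeq gene bodies are chr11:5268345-5269945 for HBE1, chr11:5253188-5254781 for HBG2, chr11:5248269-5249857 for HBG1, chr11:5232838-5234483 for HBD and chr11:5225464-5227071 for HBB. Their identifiers in the table are ENSG00000213931, ENSG00000196565, ENSG00000213934, ENSG00000223609 and ENSG00000244734 in the same order. Each is a short gene of 1589 to 1646 bases. The spans that the expression table gives are wider for HBG2, at chr11:5248274-5645789, and for HBE1, at chr11:5268345-5505617. The span of HBG2 holds 1619 of the 1810 bases of the span of HBG1 (chr11:5248083-5249892) and all of HBE1. Since HBG1 and HBG2 are also nearly identical in sequence, how reads were divided between them is uncertain, and HBG1 and HBG2 are given both singly and as a sum. The sum does not remove the overlap of HBG2 with HBE1, whose part in their values was not tested.

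**Figure D1:**
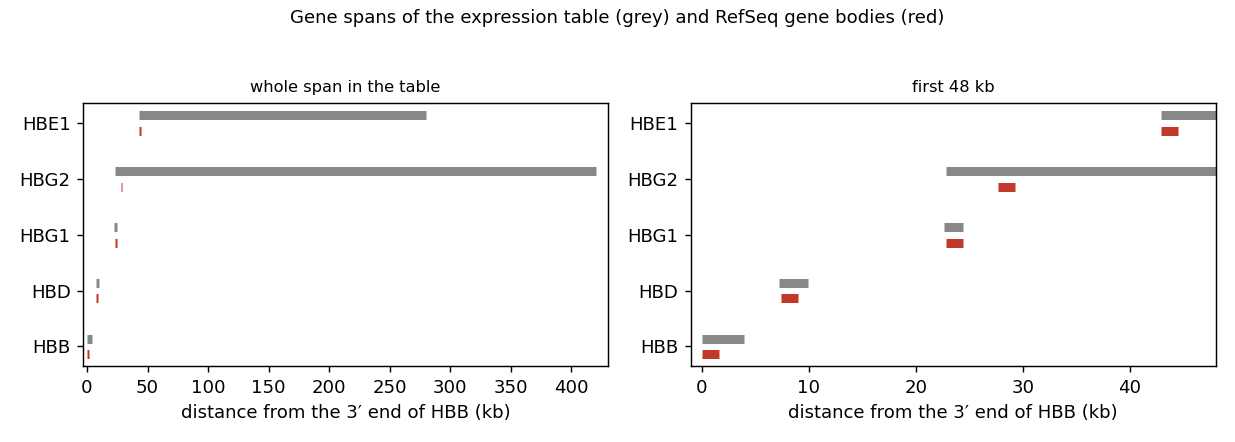
Gene spans on the distance axis, in kb from the 3′ end of HBB, with the spans listed in the expression table in grey and the RefSeq gene bodies in red; the left panel shows the whole region and the right panel the first 48 kb. The table's HBG2 bar runs from 22.8 to 420.3 kb and covers the HBE1 bar, which runs from 42.9 to 280.2 kb, whereas the red bodies do not overlap.

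Of the 5 promoters, that of HBD was matched in the RefSeq promoter table, and it is shown as the 1 available example of a promoter of the cluster. The 250 bases before its start, on the minus strand at chr11:5234484-5234733 of GRCh38.p14, are printed 5′ to 3′ with matches to the motifs searched in capitals.
HBD: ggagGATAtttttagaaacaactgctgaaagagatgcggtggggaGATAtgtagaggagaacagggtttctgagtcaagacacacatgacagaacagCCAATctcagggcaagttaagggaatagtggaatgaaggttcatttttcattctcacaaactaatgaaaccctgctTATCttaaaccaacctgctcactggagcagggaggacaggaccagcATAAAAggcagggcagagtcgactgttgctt
Both strands were searched, and the share of windows of the same length that hold a motif was taken over 35116 RefSeq promoters. The core GATA was found 3 times, 1 of them on the reverse strand, and it is present in 45.6% of all windows. The motif CCAAT was found 1 time, at 153 bases before the start, and is present in 32.0% of windows. The TATA-box-like run ATAAAA was found 1 time, at 31 bases before the start, and is present in 14.8%. The core CACCC, known at many red cell genes, was found 0 times and is present in 54.7% of windows. The longer motif CCNCNCCC, which can overlap the former, was also found 0 times, with a share of 53.4%.

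In the unsorted cultures all 5 genes were close to 0. In the 3 samples each of days 0, 2 and 4, HBE1 ranged from 0 to 6, HBG2 from 0 to 6, HBG1 from 0 to 2, HBD from 0 to 1 and HBB from 0 to 10. None of the 5 was called between day 0 and day 2, where 7.88% of all genes were called in either direction. From day 2 to day 4, 1 of 5 was called lower, against 4.53% of all genes. It was HBB, with 6, 10 and 8 on day 2 and 0, 4 and 0 on day 4 (adjusted p = 0.000522), values at or under 10 for which no fold is given. The single undifferentiated sample held more than the day 0 samples for the embryonic gene and for HBG2, with HBE1 at 124 and HBG2 at 64, beside HBD at 2 and HBG1 and HBB at 0. The embryonic alpha-like gene HBZ stood at 150 in the same sample.

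HBE1, the embryonic gene, reached the highest value of the table in CD43+ cells. It stood at 90700 in all 3 CD43+ samples of day 6 and again in all 3 of day 9. On day 12 it was 2618, 9248 and 6256, and on day 16 it was 7780, 8977 and 3658. The days 6 and 9 thus lie together at the top, where no difference can show, and the days 12 and 16 overlap well below them.

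In CD43- cells HBE1 was much lower. It was 32, 26 and 36 on day 6, 238, 164 and 130 on day 9, and 2, 25 and 78 on day 12. On day 16 the CD43- samples held 836, 1090 and 1819. On each day the CD43- values lay below every CD43+ value, and the log2 fold changes for days 6, 9, 12 and 16 were 11.47, 9.04, 8.18 and 2.42, each ± 0.67 (SE; limma, adjusted p = 3.35e-13, 6.52e-12, 2.73e-11 and 0.00239). On days 6 and 9 these differences are limited from above by the highest value of the table.

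HBG2, the more abundant of the fetal genes in the table, was 25836, 20394 and 15842 in CD43+ cells of day 6 and 90700, 48030 and 48030 on day 9. It was 2700, 9714 and 6064 on day 12 and 22812, 37166 and 11498 on day 16. The day 12 samples were the lowest of the 4 days and overlap no other day. The spread within day 16 was wide, with its replicate 3 below the lowest day 6 sample.

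In CD43- cells HBG2 was 22 in each of the 3 samples of day 6, 152, 97 and 71 on day 9, and 0, 25 and 70 on day 12. On day 16 it was 1620, 4148 and 2876, above all earlier CD43- samples and below all CD43+ samples of that day. The log2 fold changes between CD43+ and CD43- cells were 9.78, 9.18, 8.79 and 2.99 for days 6, 9, 12 and 16, each ± 0.93 (SE; limma, adjusted p = 2.32e-09, 2.56e-09, 4.00e-09 and 0.00623). The day 16 difference was not called at a pseudocount of 0.1, where its adjusted p was 0.111.

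HBG1, the other fetal gene, had values about 2 orders of magnitude lower. In CD43+ cells it was 196, 136 and 71 on day 6, then 314, 268 and 344 on day 9. Later it was 14, 130 and 20 on day 12, and 64, 94 and 30 on day 16. Day 9 was the highest, and days 12 and 16 overlap. In the CD43- samples of days 6 to 16 HBG1 ranged from 0 to 8, and it was listed at 0 in all 3 of day 9. The CD43 difference was 6.63 ± 0.76 in log2 fold change on day 6, 4.05 ± 0.76 on day 12 and 4.32 ± 0.76 on day 16 (limma, adjusted p = 5.46e-08, 3.43e-05 and 1.51e-05). For day 9, with CD43- cells at 0, the adjusted p was 3.85e-10. With a pseudocount of 10 the day 12 difference was 1.94, under the 4-fold threshold.

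HBD, the minor adult gene, had its highest values on day 9 in CD43+ cells, as HBG1 did. It was 682, 296 and 178 on day 6 and then 3576, 2012 and 2316 on day 9. Later it was 77, 498 and 497 on day 12, and 688, 825 and 292 on day 16. Every day 9 sample was above every sample of the other days, and the other days overlap one another. In CD43- cells HBD was at most 4 on days 6, 9 and 12, and 8, 22 and 12 on day 16. Its log2 fold changes between CD43+ and CD43- cells for days 6, 9, 12 and 16 were 8.04, 9.68, 7.54 and 5.31, each ± 0.61 (SE; limma, adjusted p = 4.19e-11, 2.73e-13, 2.36e-11 and 1.89e-08).

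HBB, the main adult gene, was highest on day 6 and lower afterwards. In CD43+ cells it was 110, 104 and 63 on day 6, then 42, 27 and 22 on day 9. Later it was 1, 0 and 1 on day 12, and 8, 6 and 6 on day 16. The 4 days do not overlap. In CD43- cells HBB was listed at 0 in all 9 samples of days 6, 9 and 12 and was 0, 2 and 0 on day 16. The adjusted p of the difference between CD43+ and CD43- cells was 6.66e-11, 3.32e-09, 0.247 and 0.000160 for days 6, 9, 12 and 16 (limma), and no fold is given against populations at 0 or where both populations lie under 10.

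**Figure D2:**
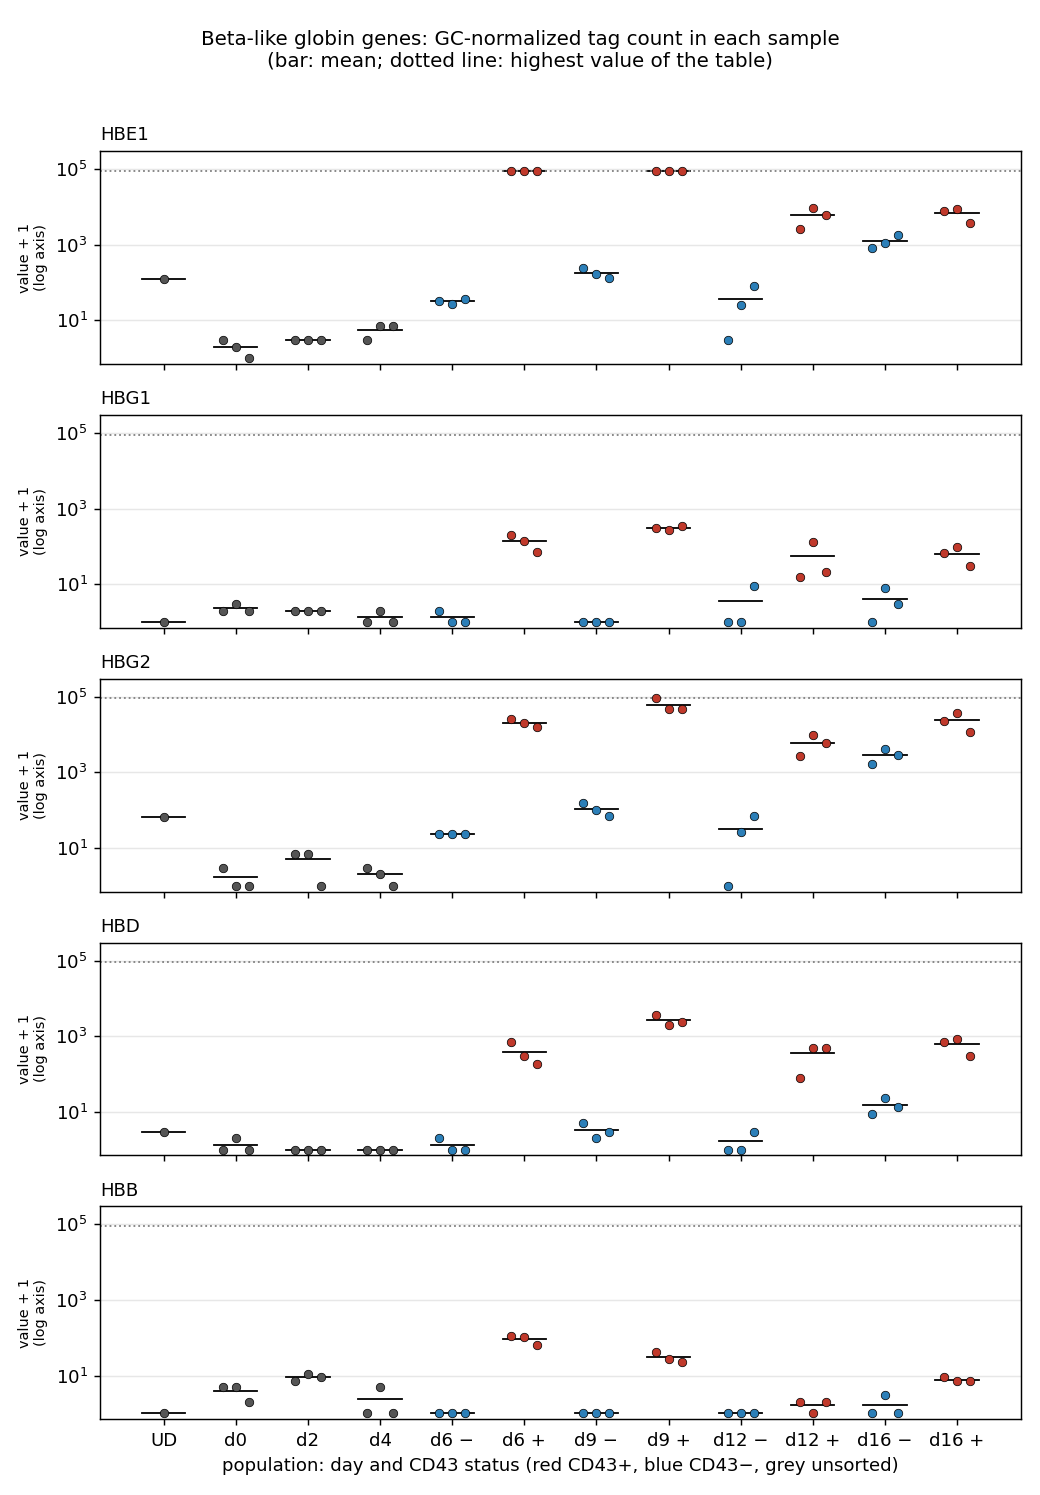
The value + 1 of each gene in each sample (log axis; GC-normalized tag counts), by population, with a bar at the mean of the population; UD is the single undifferentiated sample. HBE1 meets the dotted line at 90700 in the 6 CD43+ samples of days 6 and 9, whereas the HBB points of day 12 CD43+ cells lie at 0 or 1.

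Counted together, all 5 genes were called higher in CD43+ than in CD43- cells on day 6, against 4.68% of all genes tested called higher. On day 9 all 5 were again called higher, against 8.65% of all genes, but with a pseudocount of 10 HBB at 1.98 was under the 4-fold threshold. On day 12 it was 4 of 5, all but HBB, against 11.8%, and on day 16 all 5, against 12.2%. The day 12 count includes HBG1, which with a pseudocount of 10 was at 1.94, under the 4-fold threshold. The day 16 count includes HBB, with all values under 10, and HBG2, which was not called at a pseudocount of 0.1 (limma, adjusted p = 0.111). The median log2 fold change of the 5 genes was 8.04, 9.04, 7.54 and 2.99 on the successive days, beside 0.14, 0.24, 0.22 and 0.14 over all genes tested. On days 6, 9 and 12 these medians include HBB, and on day 9 also HBG1, with CD43- populations at 0, whose fitted fold change depends on the pseudocount. HBG1, HBD and HBB passed the filter on low values only through CD43+ samples, so that their part in these counts is not independent of it.

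**Figure D3:**
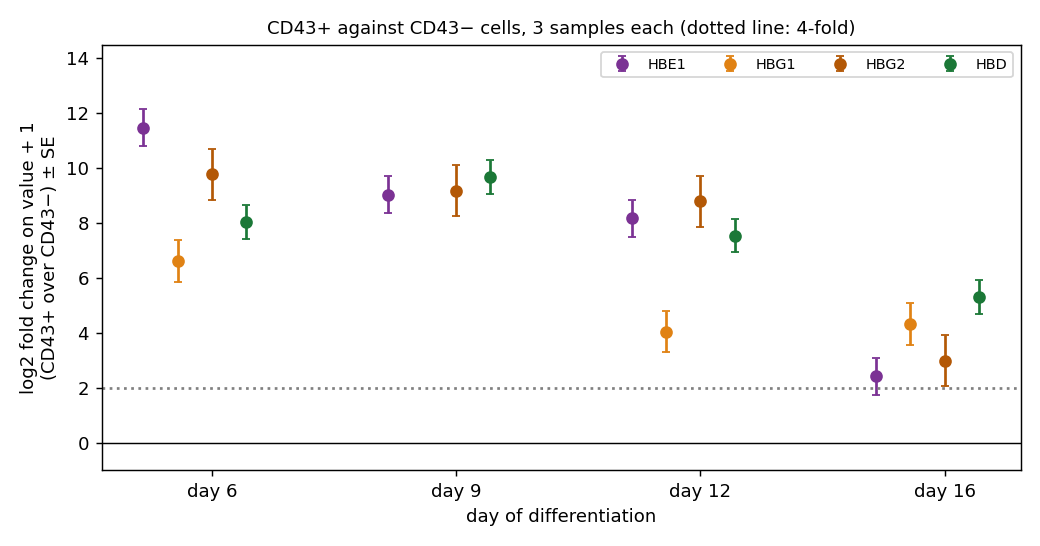
The log2 fold change on value + 1 of CD43+ over CD43- cells (3 samples against 3, ± SE of the model of 33 samples) for HBE1, HBG1, HBG2 and HBD by day, with a dotted line at 4-fold. Not drawn are HBG1 on day 9 and HBB on days 6, 9 and 12, at 0 in all 3 CD43- samples, and HBB on day 16, under 10 in all 6 samples. HBE1 goes from 11.47 on day 6 to 2.42 on day 16, and HBD from 8.04 to 5.31.

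Between day 4 and day 6, all 5 genes were called higher in the CD43+ cells, against 6.80% of all genes. HBE1 rose by 14.07 ± 0.67 and HBG2 by 13.45 ± 0.93 in log2 fold change (limma, adjusted p = 1.22e-14 and 9.77e-12). HBG1 rose by 6.63 ± 0.76 and HBB by 5.73 ± 0.51 (adjusted p = 5.57e-08 and 6.78e-10), and HBD, listed at 0 in all 3 day 4 samples, had an adjusted p of 2.54e-11. In the CD43- cells 2 of 5 were called higher than on day 4, against 4.94% of all genes. They were HBE1, by 2.60 ± 0.67, and HBG2, by 3.66 ± 0.93 (limma, adjusted p = 0.00248 and 0.00229). With a pseudocount of 10 neither passed the 4-fold threshold. Both comparisons share the day 4 samples.

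Within CD43+ cells, 1 of 5 genes was called higher on day 9 than on day 6, against 3.56% of all genes. It was HBD, which rose by 2.95 ± 0.61 in log2 fold change (limma, adjusted p = 0.000493). HBB went the other way, by -1.58 ± 0.51 (adjusted p = 0.0185), which is under the 4-fold threshold. HBG1 and HBG2 had higher values on day 9 in every sample, but at 1.30 ± 0.76 and 1.55 ± 0.93 they did not pass the test (adjusted p = 0.212 and 0.230).

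From day 9 to day 12 all 5 genes were called lower in CD43+ cells, against 6.54% of all genes. HBE1 fell by 4.09 on the log2 scale, from the highest value of the table, and HBG1 fell by 3.16 (limma, adjusted p = 1.00e-05 and 0.000922). HBG2 fell by 3.45, HBD fell by 3.25 and HBB fell by 4.25 (adjusted p = 0.00266, 6.28e-05 and 8.23e-08). For all 5 every day 12 sample lay below every day 9 sample, as was so for 35.6% of all genes. With a pseudocount of 0.1, HBG1 and HBG2 were not called (adjusted p = 0.0573 and 0.0782), and with a pseudocount of 10 HBB changed by -1.89, under the 4-fold threshold.

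From day 12 to day 16, 1 of 5 was called higher in CD43+ cells, against 3.79% of all genes. It was HBB, with an adjusted p of 0.000797 and values under 10 on both days, and without day 12 CD43+ replicate 2 it was not called. HBG2 had a log2 fold change of 1.98 ± 0.93 and did not pass (adjusted p = 0.0891), although its 3 day 16 samples all lay above the 3 of day 12. HBE1 stood at 0.25 ± 0.67, HBG1 at 0.74 ± 0.76 and HBD at 1.03 ± 0.61 (adjusted p = 0.797, 0.459 and 0.179), and their samples overlapped.

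In CD43- cells the changes were those of HBE1 and HBG2, with HBD on day 16. From day 6 to day 9, 1 of 5 was called higher, against 1.10% of all genes, namely HBE1 by 2.43 ± 0.67 (limma, adjusted p = 0.0272). Leaving out 1 sample ended this call for 4 of the 6 samples compared, day 6 CD43- replicate 1 or 2 or day 9 CD43- replicate 1 or 2, with adjusted p of 0.0630 to 0.0912. In a fit of the 2 populations alone it was 0.0797. From day 9 to day 12, 2 of 5 were called lower, against 2.80% of all genes. HBE1 fell by 3.24 and HBG2 fell by 3.06 on the log2 scale (adjusted p = 0.000474 and 0.0114). Without day 12 CD43- replicate 1, the sample with HBE1 at 2 and HBG2 at 0, the changes were -1.93 and -1.26 and neither was called, nor was either in a fit of the 2 populations alone (adjusted p = 0.140 and 0.248).

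From day 12 to day 16, 3 of 5 were called higher in CD43- cells, against 4.46% of all genes. HBE1 rose by 6.01 ± 0.67, HBG2 by 7.77 ± 0.93 and HBD by 3.27 ± 0.61 in log2 fold change (limma, adjusted p = 6.53e-08, 2.19e-07 and 0.000102). HBD, at 1.13 with a pseudocount of 10, was under the 4-fold threshold. Blood cell markers were also present in these day 16 CD43- samples. The summed level of 11 neutrophil and macrophage markers was 7563 to 27168 there, 240 to 11995 in CD43- cells of day 12 and 123 to 154 in those of day 9, and MPO, a granule enzyme, averaged 8822 on day 16. The 11 did not move as a set, since 6 were called higher and 2 lower on day 16 than on day 12. The 2 were the macrophage markers CD14 and CD163, which averaged 200 and 602 on day 12 and 4.33 and 21.3 on day 16. The summed level of 7 megakaryocyte markers was 4786 to 14676, against 212 to 1142 on day 12, and that of 12 erythroid markers was 4618 to 4918, against 2330 to 3335. None of the 3 lists had a marker at 0 in all 3 samples of day 16, and their part in the globin values was not tested.

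Whether the CD43 difference itself changed between days was tested by interaction terms of the same model. None of the 5 genes passed for day 9 minus day 6, where 7.39% of all genes did in either direction and where HBE1 stood at the highest value in CD43+ cells of both days. With a pseudocount of 10, HBE1 (-2.15, adjusted p = 0.0172) and HBD (2.66, adjusted p = 0.00463) did pass. For day 12 minus day 9, 2 of 5 were called lower, against 4.39% of all genes. The terms were -4.21 ± 1.07 for HBG1 and -4.25 ± 0.72 for HBB (limma, adjusted p = 0.00398 and 6.14e-05), and both genes were listed at 0 in the CD43- samples of day 9, so that the size depends on the pseudocount. HBB, at -1.89 with a pseudocount of 10, was no longer called there, and HBD at -2.98 was (adjusted p = 0.00108). For day 16 minus day 12, 2 of 5 were called lower, against 2.17% of all genes, with -5.76 ± 0.95 for HBE1 and -5.79 ± 1.32 for HBG2 (adjusted p = 0.000139 and 0.00322). For these 2 genes the CD43- values were 836 or more on day 16 and 78 or less on day 12, whereas the CD43+ values of HBE1 overlapped between the days. HBD was also called there with a pseudocount of 0.1 (-4.51, adjusted p = 0.0402). In the day 16 minus day 12 terms, day and sort cannot be told apart, as day 16 cells were also sorted on CD45.

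The balance of fetal to embryonic globin was followed as the ratio of HBG1 plus HBG2 to HBE1 in each sample. In CD43+ cells it was 0.287, 0.226 and 0.175 on day 6 and 1.0, 0.533 and 0.533 on day 9. It was 1.04, 1.06 and 0.973 on day 12 and 2.94, 4.15 and 3.15 on day 16. The ratio thus lay under 1 in every day 6 sample, near 1 on day 12 and above 2 in every day 16 sample, and the mean log2 ratio was -2.15 ± 0.36, -0.60 ± 0.53, 0.03 ± 0.07 and 1.75 ± 0.26 on the successive days (SD, n = 3 each). It differed between days by an exact permutation test of the between-day sum of squares, over all 369600 assignments of the 12 samples (p = 0.000130, adjusted p = 0.000519 over 4 ratios). The test asks for any difference between days and has no direction. On days 6 and 9, HBE1 could go no higher in the table, so that the ratio there may be lower than it appears, except in day 9 replicate 1, where HBG2 also stood at the top. Between 2 days, 3 against 3 samples cannot give an exact p below 0.1. Day 16 also differs from the other days by its sort on CD45, and the day and the sort cannot be told apart there. As values reflect ranks in bins of GC content, a ratio of 1 need not mean equal amounts of RNA on any day.

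In CD43- cells neither gene came near the highest value, and the ratio was again above 1 in every day 16 sample. Their ratios were 0.719, 0.846 and 0.611 on day 6, 0.639, 0.591 and 0.546 on day 9, and 1.0 in each of the 2 day 12 samples that reached 10. On day 16 they were 1.94, 3.81 and 1.58. The mean log2 ratio changed by 1.64 from day 6 to day 16, and the difference between days passed an exact permutation test over 11 samples (p = 0.00117, adjusted p = 0.00468), a test added after the CD43+ values were seen. The single undifferentiated sample had a log2 ratio of -0.94, on the embryonic side.

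**Figure D4:**
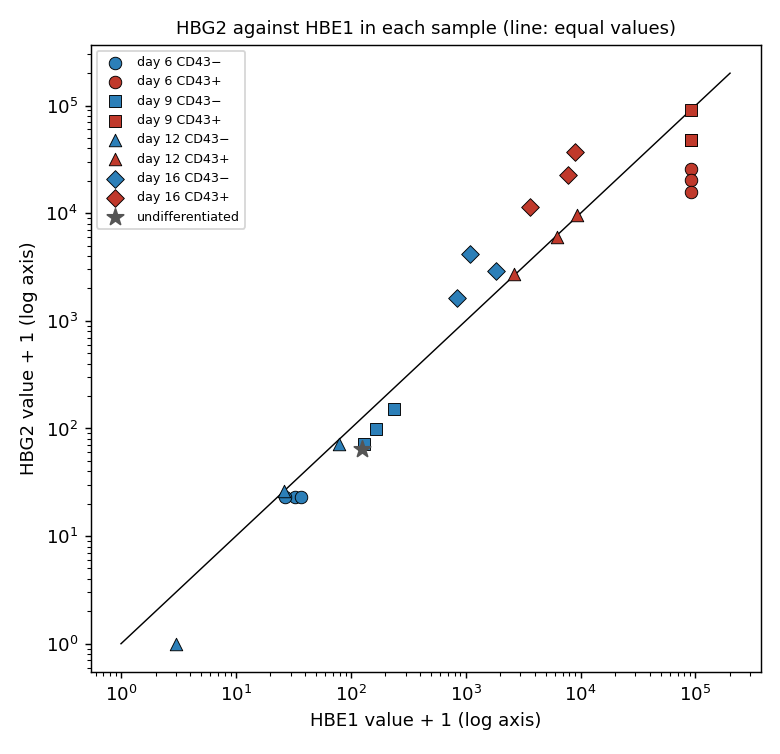
HBG2 against HBE1 in each sample (value + 1, log axes), with CD43+ samples in red, CD43- samples in blue, a symbol for each day and a star for the undifferentiated sample; the line marks equal values. Samples of days 6 and 9 lie on or under the line, those of day 12 lie along it except for 1 CD43- sample with both genes under 10, and all 6 samples of day 16 lie above it.

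The share of adult globin in the deposited values stayed small. The log2 ratio of HBB plus HBD to the sum of HBE1, HBG1 and HBG2 in CD43+ cells averaged -8.03 ± 0.79, -5.88 ± 0.22, -5.32 ± 0.73 and -5.64 ± 0.17 for days 6, 9, 12 and 16 (SD, n = 3 each). The days differed (exact permutation test, p = 0.00649, adjusted p = 0.0107), with all day 6 samples below all later ones in the table and the later days overlapping. HBE1, in the denominator, could go no higher on days 6 and 9, so that the order of those days, with each other and with later days, holds only for the values as deposited. HBD was the larger term, and it exceeded HBB in each of the 12 CD43+ samples. The ratio of HBD to HBB was 6.20, 2.85 and 2.83 on day 6, and 85.1, 74.5 and 105 on day 9. On day 16 it was 86.0, 138 and 48.7, but over HBB values of only 8, 6 and 6. On day 12, with HBB at 0 or 1, the mean log2 ratio on value + 1 was 7.40 ± 1.90. The days differed (exact permutation test, p = 0.00805, adjusted p = 0.0107), and day 6 was the lowest.

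The ratio of HBG2 to HBG1 in CD43+ cells was 132, 150 and 223 on day 6 and then 289, 179 and 140 on day 9. It was 193, 74.7 and 303 on day 12, and 356, 395 and 383 on day 16. In day 9 replicate 1, at 289, HBG2 had reached the top value, so that its ratio may be higher than it appears. No difference between days passed (exact permutation test, p = 0.121), and without day 12 CD43+ replicate 2 or 3 the adjusted p was 0.0437 or 0.0312. The overlap of the 2 spans and their shared sequence bear on this ratio, and their part was not tested.

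**Figure D5:**
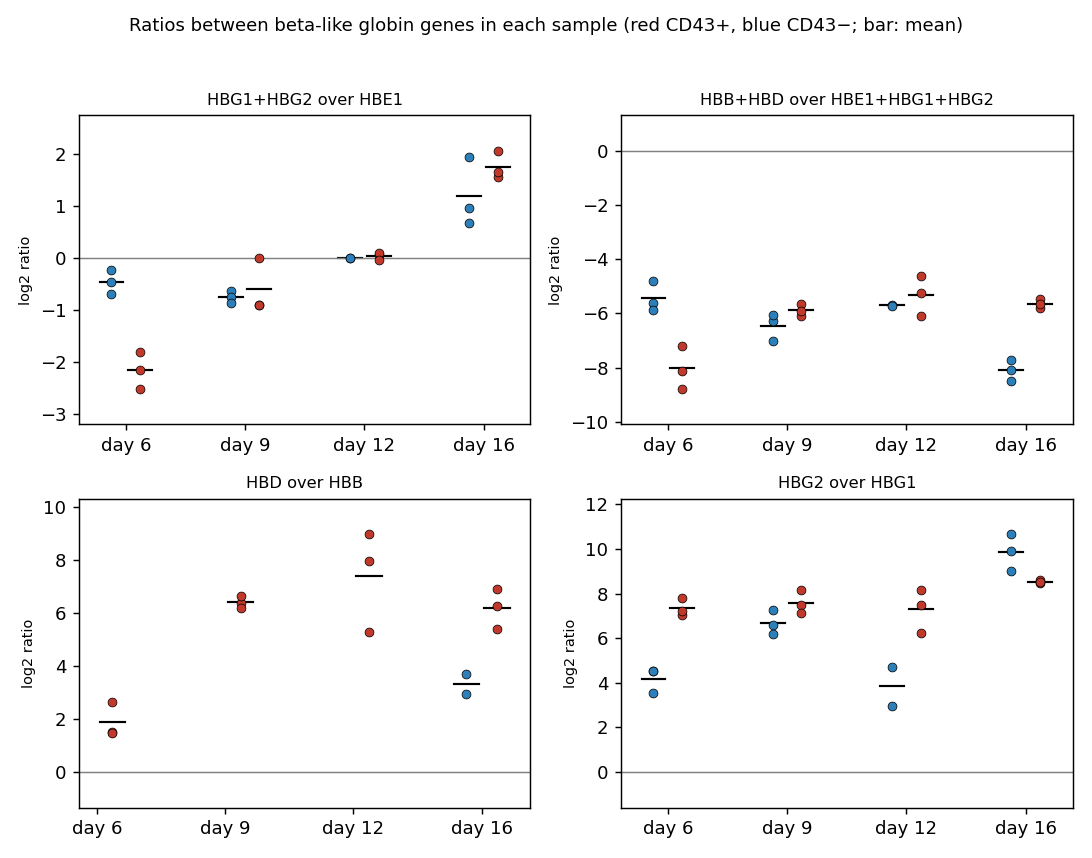
The log2 ratio on value + 1 between beta-like globin genes in each sample of days 6 to 16 (red CD43+, blue CD43-; bar at the mean; samples with both terms under 10 left out), with a grey line at equal values. The fetal to embryonic ratio of CD43+ cells rises from a mean of -2.15 to 1.75, and the adult to embryonic and fetal ratio stays under -4.

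Values of different genes were compared per kb of mRNA, with lengths of 614 to 779 bases from GENCODE v29. They remain scores by rank in bins of GC content rather than amounts of RNA. On this scale HBE1 made up 81.1% ± 3.85 of the summed beta-like values in CD43+ cells of day 6, 59.1% ± 8.84 on day 9, then 48.1% ± 0.775 on day 12 and at last 22.5% ± 3.03 on day 16 (SD, n = 3). The shares of days 6 and 9 are set in part by the top value, which HBE1 had in all 6 samples and HBG2 in 1, and hold only for the values as deposited. HBG1 and HBG2 together made up 18.5% ± 3.63, 39.2% ± 8.61, 49.3% ± 1.61 and 75.6% ± 3.23 on the same days. HBD was 0.335% ± 0.215 on day 6 and 1.65% to 2.59% on average later, and HBB averaged at most 0.0803%. The order per kb was HBE1, HBG2, HBD, HBG1, HBB on day 6, where HBG1 at 172 ± 80.3 and HBB at 147 ± 40.7 did not differ beyond their spread. On day 12, HBE1 at 9806 ± 5390 and HBG2 at 10031 ± 5713 could not be ordered. On day 16, HBG2 led at 38803 ± 20951, ahead of HBE1 at 11047 ± 4530, and every HBG2 sample lay above every HBE1 sample. The sum of the 5 deposited values was 106854 to 185332 in the samples of days 6 and 9, 5410 to 19590 on day 12 and 15484 to 47068 on day 16.

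The genes whose course was most like that of each member were sought by Pearson's r of log2(value + 1) over the 12 population means, which share samples and normalization. For HBE1 they were HBG2 (r = 0.982), HBZ (0.960) and HBA1 (0.959), the latter both alpha-like globins. For HBG2 they were HBE1 (0.982), ITGB3 (0.963), a platelet integrin, and HBA1 (0.959). HBD was most like LY6G6E (0.987), TRIM58 (0.986) and TKTL1 (0.982), and HBG1 was most like RP13-786C16.1 (0.986), RP11-930P14.1 (0.972) and MICALL2 (0.972). HBB stood farther off, with HDHD3 (0.938), ATP2C1 (0.923) and ZNF213-AS1 (0.922) at its head, and its r with the other members was 0.521 to 0.788.

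The alpha-like globins and AHSP, the chaperone of free alpha chains, were the closest related list. All 6 (HBZ, HBM, HBA1, HBA2, HBQ1 and AHSP) were called higher in CD43+ cells on days 6, 9 and 12, against 4.68%, 8.65% and 11.8% of all genes. On day 16 it was 2 of 6, against 12.2%. On that day HBZ averaged 832 in CD43- and 208 in CD43+ cells, HBA2 283 and 277, and HBM 4.33 and 3.67. The other averages were higher in CD43+ cells, as for HBA1 at 984 in CD43- and 2443 in CD43+ cells. All 6 were called lower in CD43+ cells on day 12 than on day 9, against 6.54% of all genes, with a median log2 fold change of -4.02. HBZ, the embryonic alpha-like gene, averaged 8462, 66246, 3001 and 208 in CD43+ cells of days 6, 9, 12 and 16, and it was called lower on day 16 than on day 12 by -3.88 ± 0.85 (limma, adjusted p = 0.000609). HBA1, used from the embryo to the adult, averaged 1820 on day 12 and 2443 on day 16. Between day 12 and day 16 CD43+ cells, then, the embryonic alpha-like gene was called lower, whereas the embryonic beta-like gene was not called in either direction.

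Of 21 regulators tied to globin switching, 6 were called higher and 2 lower in CD43+ than in CD43- cells on day 6, against 4.68% of all genes called higher and 7.85% called lower. KLF1, an activator of HBB known from adult red cells, averaged 2814, 2171, 183 and 454 in CD43+ cells of days 6, 9, 12 and 16. BCL11A, the repressor of the fetal genes, averaged 20.7, 170, 134 and 242 on these days and was called higher on day 9 than on day 6 (log2 fold change 2.97 ± 0.30, adjusted p = 2.41e-08). Its CD43- averages were 62.7, 307, 403 and 241. SOX6, its partner, averaged 37.0 to 79.7 in the CD43+ populations and 3462 to 4080 in the CD43- populations. LIN28A, an RNA-binding protein of fetal cells and stem cells, averaged 8016, 2068, 219 and 220 in the same CD43+ populations, and LIN28B, its relative, averaged 4354, 3316, 1340 and 1019. Between day 9 and day 12 CD43+ cells 3 of 21 were called lower, KLF1 by -3.61 ± 0.44, GATA1 by -2.54 ± 0.62 and LIN28A by -3.34 ± 0.40 (limma, adjusted p = 1.31e-07, 0.00105 and 8.89e-08), against 6.54% of all genes. None was called higher, for which the share of all genes is not given here.

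Some markers of cell types moved with the fall of the globins between day 9 and day 12. Of 12 erythroid markers, 9 were called lower in CD43+ cells, against 6.54% of all genes, and 0 higher. Their median log2 fold change was -4.15, beside -0.15 over all genes. Their summed level was 29660 to 52969 on day 9 and 4770 to 7280 on day 12. Of 7 megakaryocyte markers, 0 were called lower and 0 higher, with a median log2 fold change of -0.66. ALAS2, the first enzyme of haem synthesis in red cells, averaged 6890 on day 9 and 144 on day 12. The summed level of the 11 neutrophil and macrophage markers went from 27444 to 35448 on day 9 to 299207 to 333283 on day 12. The spans that the expression table gives for the 5 genes reach together over chr11:5225464-5645789, whereas the RefSeq bodies end at 5269945. Among 7 other genes within 100 kb of that wider span, which can lie much farther from the RefSeq bodies, 1 was called higher and 0 lower. It was TRIM22 (3.45 ± 0.34, limma, adjusted p = 4.03e-09). The share of all genes called higher between these days is not given here, for these genes or for the marker lists. The part of cell composition in the globin values was not tested.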

How the data were processed

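RNA was sequenced from H1 cells, with 34 samples mapped to populations by their titles. Replicates are called independent biological repeats, and RNA was sequenced at more than 1 company without a label of which. According to the submitters' notes and the study's methods, expression was estimated by the authors with RSEM on Bowtie2 alignments (STAR 2.7 is also listed) to hg38 and Ensembl models, then normalized with EDASeq. What was deposited is a GC-corrected, whole-number tag value per gene, treated here as a normalized score, since it is neither a raw count nor CPM. The GC percent of each gene, also deposited by the authors, was 37.64 to 45.86 for the 5 genes. The strand use of the counting is not given in the sources used here.

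The log2 of value plus 1 was modelled by limma (version 3.58.1 under R 4.3.3; lmFit, then eBayes with its trend option). A single model without blocks held 33 samples and 19788 genes with values of 10 or more in 3 or more samples, called at an adjusted p below 0.05 and a fold change above 4. Ratios were tested by exact permutation of samples over days, in samples with a term of at least 10. Both were tested on simulated data. The 5 genes, the lists and the rule for naming genes were chosen with earlier results of these data known. The rule took all members, 2 related lists, the 3 most alike genes of each and cell type markers. It also took neighbours within 100 kb of the spans as the expression table gives them. Across genes, same-numbered CD43+ and CD43- samples correlated in their deviations from population means by 0.1093 to 0.199 on day 6 and in at least 1 pair by less than 0.1 on the other days, so the samples counted as paired for day 6 alone. The undifferentiated sample entered no test. Alternatives were pseudocounts, filters, scaling, a replicate block, smaller fits, a lower fold threshold and leaving out each sample.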

Additional observations from a re-analysis of the deposited data

Results flagged for a closer look

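Interaction terms singled out 4 changes of the CD43 difference between days. From day 9 to day 12 the log2 difference between CD43+ and CD43- cells changed by -4.21 for HBG1 and by -4.25 for HBB, genes whose CD43- values stayed between 0 and 8. From day 12 to day 16 it changed by -5.76 for HBE1 and by -5.79 for HBG2, with higher CD43- values on day 16. The single undifferentiated sample, which entered no comparison, held HBE1 at 124 and HBG2 at 64, whereas the day 0 samples held at most 2 of either. That sample has no replicate.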

How the results depend on the processing

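Depth is unknown in these values, so the spread between replicate samples, pooled over populations in the model, is the only error. Values near 0 or at the highest value limit every fold change. The number of the 5 genes called moved by over 1.5 times in these cases, and the cause was not tested. With a pseudocount of 10 it was 0 for day 4 against day 2, 0 for day 6 CD43- cells against day 4, 0 for CD43+ cells of day 16 against day 12 and 1 for CD43- cells of day 12 against day 9. A pseudocount of 0.1 gave 3 for CD43+ cells of day 12 against day 9 and 0 for CD43- cells of day 9 against day 6. A fold change above 2 gave 2 for CD43+ cells of day 9 against day 6. Smaller moves, by 1 gene in other comparisons and from 4 to between 3 and 6 for changes of the CD43 difference, are not listed. Under a filter of 100 or more in 3 samples, HBB was not tested, which left 0 for day 4 against day 2 and 0 for CD43+ cells of day 16 against day 12. Fits of only the 2 populations gave 0 for CD43- cells of day 9 against day 6 and 0 for those of day 12 against day 9. Leaving out 1 sample gave 0 to 1 for day 4 against day 2 (0 without day 4 replicate 1 or 3), 0 to 1 for CD43+ cells of day 16 against day 12, and for CD43- cells 0 to 1 on day 9 against day 6 and 0 to 2 on day 12 against day 9. Among single genes, HBE1 in CD43+ cells of day 16 against day 12 ranged from -0.26 (without day 12 replicate 1) to 0.65 when 1 sample was left out, and with a pseudocount of 0.1 the change of the CD43 difference was -0.30 for HBD (day 9 minus day 6), 0.73 for HBG2 (day 12 minus day 9) and -0.63 for HBG1 (day 16 minus day 12), each against its direction and none called. The HBG2 to HBG1 ratio passed with a pseudocount of 10 (day 16 minus day 6 of 1.07, adjusted p = 0.0409), and leaving out 1 sample gave 1.03 to 1.41. With the replicate block, the pairing changed no call: 5 genes stayed called on day 6, also in a fit of the 2 day 6 populations, and the fetal to embryonic ratio kept its change of 3.91 (adjusted p = 0.00694). For the counts and ratios, 134 of 146 values under other settings and 122 of 132 under leaving out 1 sample stayed within 1.5 times of the count or, for ratios, on the same side of the threshold.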
